A study of Mus musculus with 3 samples.

Results

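The 51 genes described here encode the ATP-driven ion pumps and the sodium-calcium exchangers of the cell. They were chosen by symbol alone, from the 32532 gene symbols listed in each count file. They are the sodium pump subunits (Atp1a and Atp1b), the calcium pumps (Atp2a, Atp2b and Atp2c), the vacuolar proton pump or V-ATPase with its accessory proteins (Atp6v0, Atp6v1 and Atp6ap), the P5-type ATPases (Atp13a) and the exchangers Slc8a and Slc8b. Genes with 0 counts stayed in. All libraries came from the cerebral cortex of adult mice that carry both the driver Htr3a-Cre (NO176) and the reporter Rosa26-LSL-EGFP/Rpl10a, in which cells that have expressed Cre make a ribosomal protein fused to EGFP. Ribosomes were pulled down through the EGFP tag and the bound RNA was sequenced (translating ribosome affinity purification, TRAP). The 3 libraries, replicates 1, 2 and 3, form 1 immunopurified (IP) group, and no unpurified cortex or other genotype was analysed here. Comparisons are therefore between genes of the same 3 libraries. Whether each replicate is a separate animal or a pool is not stated in the labels, so the p-values reflect variation among these libraries, possibly technical variation alone.

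The sodium pump pairs a catalytic alpha subunit with a beta subunit and exports sodium while importing potassium, which restores the gradients that neuronal firing runs down. Calcium is cleared from the cytosol by SERCA pumps into the endoplasmic reticulum, by PMCA pumps and sodium-calcium exchangers across the plasma membrane, and by SPCA pumps into the Golgi. The V-ATPase joins a cytosolic V1 sector, which splits ATP, to a membrane V0 sector, which carries protons. It acidifies lysosomes, and in synaptic vesicles it builds the gradient that drives the loading of GABA and other transmitters. Most of these subunits exist as several isoforms with different tissue ranges.

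Gene counts summed to between 13951332 and 14461053 per library. Levels are given in TPM, counts corrected for exon length and brought to a common total, with the SD over the 3 libraries after ± (n = 3). The labelled cell type was checked against its markers. The 8 GABAergic markers had a median of 182 ± 24.1 TPM and the 8 markers of the Htr3a class 467 ± 45.5 TPM, with every one of them at 1 TPM or more in 3 of 3 libraries. Markers of other cells were also present: medians were 87.1 ± 4.10 TPM for 9 excitatory neuron markers, 14.8 ± 2.20 TPM for 15 astrocyte markers and 28.6 ± 4.65 TPM for 9 oligodendrocyte markers. The excitatory markers ranged from Emx1 at 1.13 ± 0.646 TPM to Camk2a at 2542 ± 302 TPM. Camk2a was above Gad2, the highest GABAergic marker, at 2194 ± 111 TPM. The excitatory markers summed to 3632, 3275 and 3345 TPM in replicates 1, 2 and 3, against 4153, 3265 and 3393 TPM for the Htr3a class. The microglial and endothelial medians were 2.11 ± 0.726 and 0.898 ± 0.326 TPM. In such bulk samples, fewer cells of a type and less RNA per cell cannot be told apart.

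Pump and V-ATPase genes together made up 1.99 ± 0.137% of the summed TPM of all genes. As many as 37 of the 51 genes reached 1 TPM in 3 of 3 libraries, against 50.9% of all 23896 genes with an exon length. At least 100 TPM was reached by 22 of the 51, against 7.4% of all genes. The median over the 51 genes was 68.5 ± 8.63 TPM, beside 2.07 ± 0.165 TPM over all genes with a length. At the other end, 6 genes had 0 counts in 3 of 3 libraries, against 30.3% of all genes. These were the sodium pump beta subunit Atp1b4, the fast-muscle calcium pump Atp2a1, and the V-ATPase isoforms Atp6v0a4, Atp6v0d2, Atp6v1e2 and Atp6v1g3. A count of 0 still allows up to 3 counts, which is 0.209, 0.215 and 0.207 CPM (counts scaled to the library total) in replicates 1, 2 and 3. Another 4 genes had 0 counts in some libraries, namely Atp1a4, Atp2c2, Atp6v1b1 and Slc8b1. Such limits cover counting error only.

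**Figure D1:**
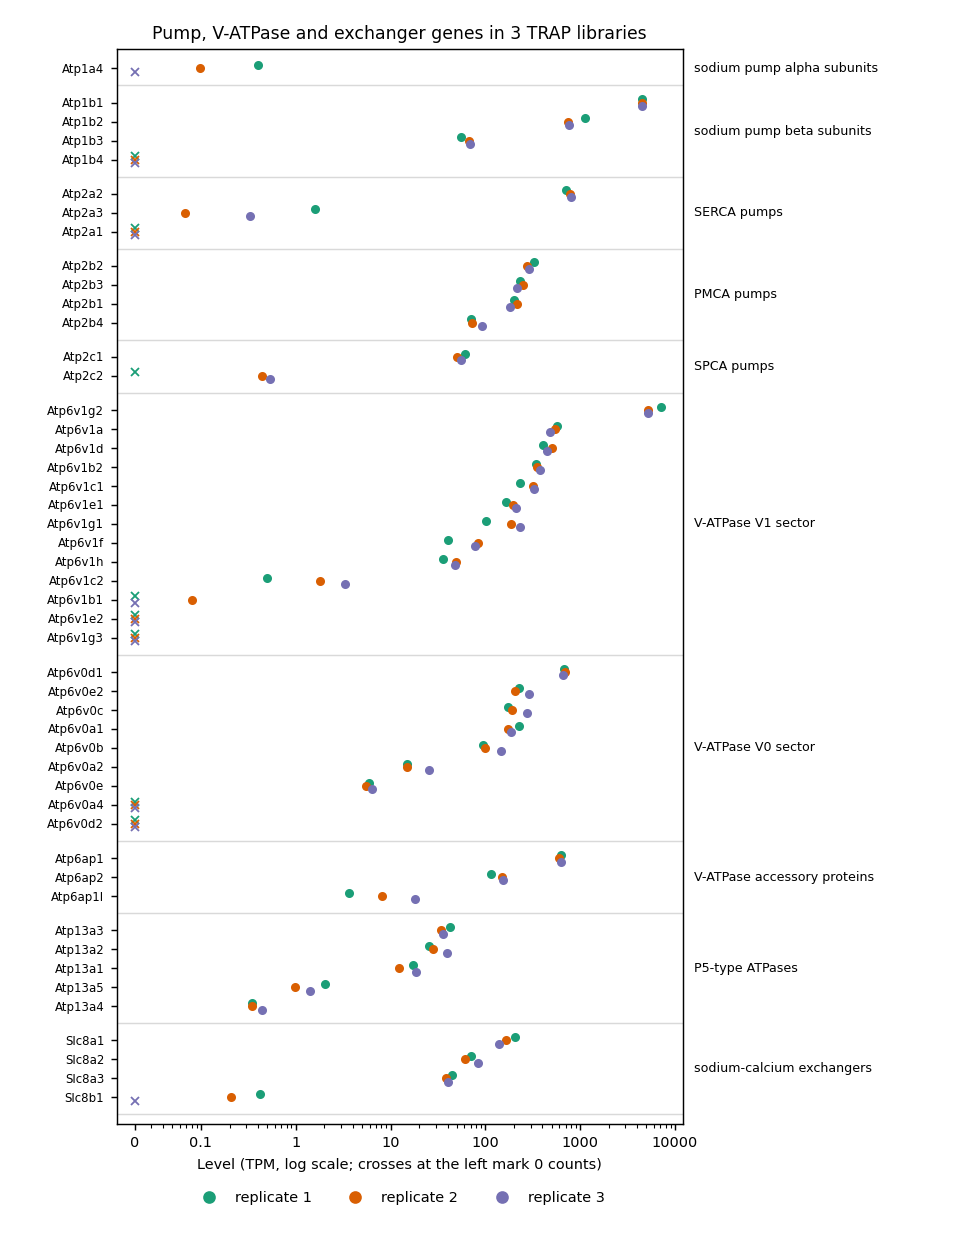
Level of 48 of the 51 genes in TPM (log axis) in replicates 1, 2 and 3, grouped by role and ordered by mean within a group; crosses at the left edge mark 0 counts. Each class is led by 1 or a few genes, with Atp6v1g2 and Atp1b1 highest at means of 5831 and 4488 TPM and tissue-restricted isoforms at or near 0.

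Of the beta subunits, which carry the alpha subunit to the membrane, Atp1b1 held 82.7 ± 3.21% of the summed TPM and Atp1b2, also known as the adhesion molecule on glia, 16.1 ± 3.38%. Atp1b2 stood at 1134, 747 and 753 TPM, against 4484, 4493 and 4486 TPM for Atp1b1. Atp1b2 was highest in replicate 1, whereas the coefficient of variation of Atp1b1 in TPM was 0.106%. In CPM, Atp1b1 stood at 2648, 2793 and 2761, and its counts varied beyond counting error (chi-square, adjusted p = 0.000325). On the log2 scale Atp1b2 minus Atp1b1 was -2.38 (SD 0.35; limma, adjusted p = 2.06e-06). Atp1b3 stood at 55.1, 66.8 and 68.2 TPM, which on the log2 scale differed by -6.15 from Atp1b1 (SD 0.17; limma, adjusted p = 6.02e-09). Most genes lie below so abundant a one: of the 14313 genes tested, 0.0559% were higher and 99.9% lower than Atp1b1 at an adjusted p under 0.05. Exons of other genes, mostly Nme7 on the opposite strand, overlapped 18.7% of the Atp1b1 exons. Summed over isoforms, beta subunits came to 5429 ± 211 TPM. Atp1a4, the testis form of the catalytic subunit, had 4, 1 and 0 counts.

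Since Atp1b2 is also used as an astrocyte gene, the astrocyte markers are set beside it. All 15 markers reached 1 TPM in 3 of 3 libraries, none was at 0, and their summed level was 1525, 1461 and 1389 TPM in replicates 1, 2 and 3. Both that sum and Atp1b2 were highest in replicate 1. The defining markers Gfap, Aqp4 and Aldh1l1 were at 4.72 ± 1.33, 10.1 ± 2.78 and 3.35 ± 0.716 TPM, while the glutamate transporter gene Slc1a2 and the glutamine synthetase gene Glul were at 369.5 ± 43.8 and 731 ± 46.4 TPM. The part of astrocyte RNA in the level of Atp1b2 was not tested.

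Partners of the sodium pump were unequal as well. Of 11 genes of the Fxyd family, small membrane proteins that tune the pump, and the Nkain family, which bind its beta subunit, 7 reached 1 TPM in 3 of 3 libraries. Fxyd6 was highest at 106, 169.6 and 238 TPM, followed by Nkain1 at 154 ± 15.9 and Nkain2 at 80.7 ± 5.62 TPM. Fxyd3 had 0 counts in 3 of 3 libraries, and Fxyd4 had 0, 2 and 5 counts. The related proton-potassium pump genes Atp4a, Atp4b and Atp12a, which act in stomach and colon, had means of 0.222, 0 and 0.678 TPM, with Atp4b at 0 counts in 3 of 3 libraries and Atp4a at 0 in replicate 3.

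Calcium pumps of the endoplasmic reticulum were represented by Atp2a2, the SERCA form of heart and most other tissues. It stood at 716, 773 and 810 TPM, which was 99.9 ± 0.114% of the SERCA sum. Atp2a3, a form of blood and epithelial cells, had 23, 1 and 5 counts, or 1.58, 0.0673 and 0.328 TPM. It differed from Atp2a2 by -10.60 on the log2 scale (SD 1.74; limma, adjusted p = 5.94e-07). Among the genes tested, 0.706% were higher and 98.7% lower than Atp2a2. Most counts of Atp2a3 came from replicate 1. For Atp2a1, at 0 counts, Atp2a2 was at least 2287-fold higher in each library than the level that 3 counts would give. The SERCA inhibitors phospholamban (Pln) and sarcolipin (Sln) stood at 1.54 ± 0.432 and 2.04 ± 1.17 TPM, and myoregulin (Mrln) had 0 counts. Another gene overlaps 64.7% of the Pln exons.

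Calcium export at the plasma membrane was spread over 4 PMCA genes. Atp2b2, a form enriched in brain, held 36.8 ± 2.66% of the PMCA sum, Atp2b3, also enriched in brain, 28.8 ± 1.73%, the widely expressed Atp2b1 24.6 ± 1.46% and Atp2b4 9.79 ± 1.80%. Atp2b2 stood at 326, 277 and 289 TPM, against 201, 214 and 183 TPM for Atp2b1, and exceeded it by 0.58 on the log2 scale (SD 0.18; limma, adjusted p = 0.00172). Atp2b3 stood at 231, 250.5 and 216 TPM. Its log2 difference of 0.22 from Atp2b1 did not pass the threshold (SD 0.02; limma, adjusted p = 0.0934), although it did without moderation of the spread (t test, adjusted p = 0.00680). Atp2b4, at 71.1, 72.9 and 92.4 TPM, differed from Atp2b1 by -1.34 on the log2 scale (SD 0.31; limma, adjusted p = 1.80e-05). Atp2b1 itself was exceeded by 4.88% of the genes tested and lay above 91.2% of them.

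The order of the 3 leading PMCA genes depended on the length used. For Atp2b1 the merged exons cover 15218 nt and the longest transcript 7130 nt. When either the longest or the principal transcript set the length, the log2 difference of Atp2b2 minus Atp2b1 was -0.01. That of Atp2b3 minus Atp2b1 turned to -0.81 and -0.76 with these lengths, and to -1.43 without a length correction. Each of these negative differences passed the threshold (limma, adjusted p = 7.69e-05, 0.00015 and 9.29e-12). Atp2b4 had the lowest mean of the 4 under every length choice, with a log2 difference of -2.37 from Atp2b1 for either transcript.

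PMCA genes summed to 808 ± 25.6 TPM, near the SERCA sum of 767 ± 46.6 TPM, a ratio of 1.06 ± 0.0971 with the merged exons as length. The ratio was 1.43 ± 0.140 with the longest transcript, 1.14 ± 0.111 with the principal transcript and 1.91 ± 0.180 without a length correction. Basigin (Bsg) and neuroplastin (Nptn), membrane proteins that form the PMCA complex with the pump, stood at 446 ± 107 and 295 ± 33.3 TPM. The Golgi calcium and manganese pump Atp2c1 stood at 60.8, 50.3 and 54.7 TPM, while its paralogue Atp2c2 had 0, 4 and 5 counts. Exons of other genes overlapped 18.9% of the Atp2c1 exons.

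Sodium-calcium exchangers use the gradient that the sodium pump builds. Slc8a1, the exchanger best known from heart muscle, held 59.8 ± 6.13% of the sum of the plasma membrane members, Slc8a2, a brain form, 25.7 ± 5.53% and Slc8a3 14.6 ± 0.670%. With the principal transcript as length these shares were 87.8 ± 2.61, 6.49 ± 1.94 and 5.66 ± 0.687%. Slc8a1 stood at 204.5, 164.5 and 139 TPM, against 70.3, 60.5 and 84.3 TPM for Slc8a2. The groups did not overlap. The log2 difference was 1.23 (SD 0.45; limma, adjusted p = 9.13e-08), and the call was lost without moderation of the spread (t test, adjusted p = 0.0540). With the principal transcript as length, 3180 nt in place of 18807 nt of merged exons, it was 3.80, and without a length correction 3.07.

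Slc8a3 stood at 44.3, 38.4 and 40.1 TPM, which differed from Slc8a2 by -0.80 on the log2 scale (SD 0.24; limma, adjusted p = 0.000870). With the principal transcript as length this was -0.16 (limma, adjusted p = 0.510). Of all genes tested, 14.8% were higher and 74.5% lower than Slc8a2. Slc8b1, the exchanger of the mitochondrial inner membrane, had 4, 2 and 0 counts. The exchangers that also carry potassium were led by Slc24a2 at 392 ± 59.5 TPM and Slc24a3 at 302 ± 29.3 TPM, then Slc24a4 at 8.49 ± 1.86 TPM. Slc24a1 was the lowest at 0.158 ± 0.172 TPM, with 0 counts in replicate 1.

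**Figure D2:**
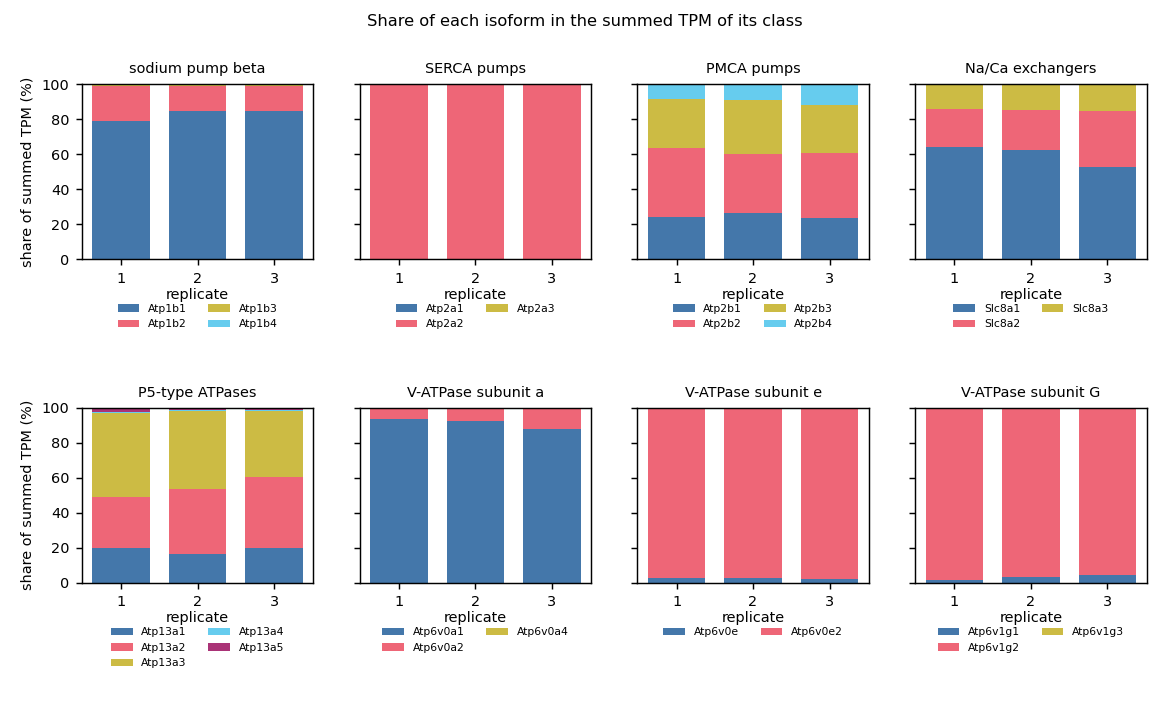
Share of each isoform in the summed TPM of its class, in percent, for replicates 1, 2 and 3 (bars). A single isoform dominates the sodium pump beta and SERCA classes and V-ATPase subunits a, e and G, with Atp6v1g2 at 96.95 ± 1.46% of subunit G, whereas 4 genes share the PMCA class.

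In the V-ATPase, 25 genes summed to 10171 ± 886 TPM, of which Atp6v1g2 alone supplied 63.7, 54.4 and 53.0% in replicates 1, 2 and 3. Without a length correction its share of the V-ATPase counts was 52.8, 43.6 and 42.9%. This gene encodes the form of the V1 subunit G that is enriched in neurons. It ranked 8 among all genes and lies on chromosome 17 from 35233660 to 35238767 (GRCm38, plus strand). Counts were 49272, 36685 and 37550, and levels 7121, 5193 and 5178 TPM in replicates 1, 2 and 3. Replicate 1 was the highest. The lowest of these values was above the highest value of any other V-ATPase gene, 684 TPM. Atp6v1g2 was also the highest V-ATPase gene with the longest transcript, the principal transcript or no length correction, with means of 5893 TPM, 6283 TPM and 2884 CPM. Its neighbours on the chromosome were far lower, with 7, 6 and 5 counts for Nfkbil1, which overlaps it on the opposite strand, and 788, 635 and 726 for Ddx39b.

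The ubiquitous paralogue Atp6v1g1 was much lower. It stood at 102, 187.5 and 229 TPM, and Atp6v1g2 exceeded it by 5.14 on the log2 scale (SD 0.86; limma, adjusted p = 7.38e-24). Unmoderated, the adjusted p from a t test was 0.0224. Atp6v1g1 was lowest in replicate 1, where Atp6v1g2 was highest, so that the share of Atp6v1g1 in subunit G was 1.42% there and 3.49% and 4.24% in the others. Among the genes tested, 3.82% were higher and 84.6% lower than Atp6v1g1. Atp6v1g3, a kidney form, had 0 counts. Subunit G thus summed to 6004 ± 1056 TPM, against 528 ± 43.9 TPM for the catalytic subunit A (Atp6v1a), a ratio of 12.8, 9.96 and 11.3 in replicates 1, 2 and 3. Without a length correction the ratio was 5.27, 4.06 and 4.57.

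The sums of the other V1 subunits lay between 44.1 and 528 TPM on average. Atp6v1a, which holds the catalytic site, stood at 565, 540.1 and 479.5 TPM. Atp6v1d, part of the central rotor, stood at 408, 508 and 449 TPM, and Atp6v1b2, the widely expressed B subunit that alternates with A in the head of the pump, at 339.6, 353 and 379 TPM. The ratio of subunit A to subunit B was 1.66, 1.53 and 1.27 in replicates 1, 2 and 3, but with the longest or the principal transcript it was 1.26, 1.16 and 0.962, below 1 in replicate 3. The kidney paralogue Atp6v1b1 had 0, 1 and 0 counts.

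A single isoform also held nearly all of subunits C and E. Atp6v1c2 stood at 0.501, 1.80 and 3.34 TPM, against 229.98, 316 and 323 TPM for Atp6v1c1, the subunit that detaches when V1 leaves V0. The log2 difference was -7.50 (SD 1.02; limma, adjusted p = 1.58e-18). Atp6v1c1 itself was exceeded by 2.56% of the genes tested and lay above 94.1% of them. Atp6v1e1, a stalk subunit, stood at 165, 197.5 and 208 TPM, while its testis paralogue Atp6v1e2 had 0 counts. Atp6v1e1 was at least 197.5-fold higher in each library than 3 counts of Atp6v1e2 would give. The lowest V1 subunits were Atp6v1f, at 40.3, 82.9 and 77.8 TPM, and the regulatory subunit Atp6v1h, at 35.8, 48.8 and 47.6 TPM. Their order depended on length: without a length correction Atp6v1h stood at 67.0, 95.9 and 92.7 CPM, against 8.20, 17.8 and 16.5 CPM for Atp6v1f.

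The V0 sector summed to 1466 ± 114 TPM over 9 genes, against 7937 ± 928 TPM over 13 genes for V1. Most of the V1 sum was Atp6v1g2, at a mean of 5831 TPM. The highest V0 gene was Atp6v0d1, which couples the rotor to the membrane ring, at 681, 684 and 666 TPM. The osteoclast and kidney paralogue Atp6v0d2 had 0 counts. Subunit a, which forms the proton path and steers the pump to particular membranes, was led by the neuronal form Atp6v0a1, with 91.4 ± 2.96% of the subunit. Atp6v0a2, a Golgi and endosomal form, stood at 15.0, 14.7 and 25.2 TPM, against 228, 174 and 186 TPM for Atp6v0a1. The log2 difference was -3.45 (SD 0.53; limma, adjusted p = 1.16e-06). Of all genes tested, 4.76% were higher and 90.5% lower than Atp6v0a1. The kidney form Atp6v0a4 had 0 counts, and Tcirg1, which encodes the a3 subunit of osteoclasts, averaged 0.634 ± 0.506 TPM.

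For subunit e, a small V0 protein, the brain-enriched Atp6v0e2 held 97.6 ± 0.257% and the widely expressed Atp6v0e the rest. Atp6v0e2 stood at 229, 208 and 291 TPM, against 5.96, 5.55 and 6.34 TPM for Atp6v0e. The log2 difference was 5.31 (SD 0.16; limma, adjusted p = 7.42e-10). Of all genes tested, 62.3% were also higher and 23.7% lower than Atp6v0e. In the membrane ring, the c'' subunit Atp6v0b stood at 95.3, 97.9 and 145 TPM, against 174, 191 and 273 TPM for the c subunit Atp6v0c. Both were highest in replicate 3. The log2 difference was -0.91 (SD 0.05; limma, adjusted p = 0.000807). Among the genes tested, 3.54% were higher and 90.2% lower than Atp6v0c. The call was lost with the longest transcript as length (-0.28; limma, adjusted p = 0.326) and without replicate 2 (-0.89; limma, adjusted p = 0.0771). Reads that fit several places were not counted, and Atp6v0c has annotated pseudogene copies, so its level is uncertain. Rnasek, a further V-ATPase-associated gene, had 0 counts, and 67.7% of its exons overlapped another gene.

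Accessory proteins were unequal. Atp6ap2, the prorenin receptor, stood at 114, 149.7 and 152 TPM, against 632, 593 and 634 TPM for Atp6ap1, a chaperone of V0 assembly. The log2 difference was -2.17 (SD 0.26; limma, adjusted p = 1.18e-06). Atp6ap1 itself was exceeded by 0.915% of the genes tested and lay above 98.4% of them. Atp6ap1l, a related gene, had 13, 29 and 67 counts. Of the other genes of V-ATPase assembly in the endoplasmic reticulum, Vma21, Tmem199 and Ccdc115 stood at 36.2 ± 0.594, 53.6 ± 23.5 and 57.4 ± 19.4 TPM. The rabconnectin genes, whose products help V1 and V0 join, were led by Dmxl2, Rogdi and Wdr7 at 157 ± 14.2, 132 ± 19.2 and 127 ± 2.02 TPM, with Dmxl1 lowest at 37.1 ± 9.21 TPM. Among genes with a TLDc domain, which bind the V-ATPase, Oxr1 stood at 319 ± 20.1, Tbc1d24 at 60.1 ± 3.54 and Ncoa7 at 43.3 ± 3.72 TPM, and Tldc2 had 0 counts.

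Promoters were examined because many lysosomal genes carry the E-box-like motif TCACGTGA, which the factor TFEB is known to bind. RefSeq entries (GRCm38.p6), which run from upstream of a gene's start to just inside it, were found for 35 of the 51 genes, in 44 entries. The motif, searched on both strands, stood in 4 entries, or 9.09% of them, against 0.974% of all 32851 entries. Each match also contains CACGTG, which 13.6% of the 44 and 7.15% of all entries held. The genes with a match were Atp6v0d1, Atp6v1a, Atp6v0e and Atp2b1, whose levels ran from 5.95 to 677 TPM. Their windows of 80 bases are shown 5′ to 3′ with the motif in capitals, followed by both entries of Atp6v1g2, the highest gene, in which this motif was not found.
Atp6v0d1, chr8:105566045-105566124, minus strand: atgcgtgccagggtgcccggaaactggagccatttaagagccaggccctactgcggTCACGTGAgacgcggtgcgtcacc
Atp6v1a, chr16:44139348-44139427, minus strand: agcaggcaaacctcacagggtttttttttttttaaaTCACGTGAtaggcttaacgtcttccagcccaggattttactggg
Atp6v0e, chr17:26676336-26676415, plus strand: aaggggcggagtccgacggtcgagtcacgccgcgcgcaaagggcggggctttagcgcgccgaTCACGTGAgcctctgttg
Atp2b1, chr10:98914582-98914661, plus strand: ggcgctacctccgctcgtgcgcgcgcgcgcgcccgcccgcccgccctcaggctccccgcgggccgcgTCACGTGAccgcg
Atp6v1g2, chr17:35234950-35235029, plus strand: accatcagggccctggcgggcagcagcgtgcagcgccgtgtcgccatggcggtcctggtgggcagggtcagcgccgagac
Atp6v1g2, chr17:35236536-35236615, plus strand: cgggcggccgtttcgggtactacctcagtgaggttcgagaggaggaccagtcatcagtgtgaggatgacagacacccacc

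The motif began 4 bases before the annotated start in Atp6v0d1 and 132 bases before it in Atp6v1a. In Atp6v0e and Atp2b1 the motif lay inside the gene, beginning at bases 3 and 8 counted from the start. The GC-box core GGGCGG stood in 59.1% of the 44 entries and 35.7% of all entries, TATAAA in 2.27% and 13.6%, and the CRE TGACGTCA in none of the 44 and 1.79% of all, each counted on both strands. These are matches of letters in a window and do not show binding.

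The P5-type ATPases summed to 86.0 ± 9.93 TPM, well below the sodium and calcium pump classes other than SPCA. Atp13a2, the lysosomal polyamine exporter, and the related Atp13a3 shared the lead. Atp13a3 stood at 41.9, 34.0 and 35.7 TPM, against 25.2, 28.0 and 39.2 TPM for Atp13a2. Values overlapped, and the log2 difference of 0.29, positive in 2 of 3 libraries, did not pass the threshold (SD 0.43; limma, adjusted p = 0.287). It passed without replicate 3 (0.51; limma, adjusted p = 0.0207) and without a length correction (1.02; limma, adjusted p = 0.000128). Atp13a1, which removes misplaced proteins from the endoplasmic reticulum, stood at 17.3, 12.3 and 18.7 TPM. Its log2 difference from Atp13a2 was -0.92 (SD 0.34; limma, adjusted p = 0.000968), a call lost without replicate 2 (-0.80; limma, adjusted p = 0.0915) and without moderation (t test, adjusted p = 0.0626). Atp13a5 had 26, 13 and 19 counts and Atp13a4 6, 6 and 8 counts, with log2 differences of -4.32 and -5.99 from Atp13a2 (limma, adjusted p = 1.62e-18 and 7.45e-14). Of all genes tested, 28.8% were higher and 55.0% lower than Atp13a2.

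**Figure D3:**
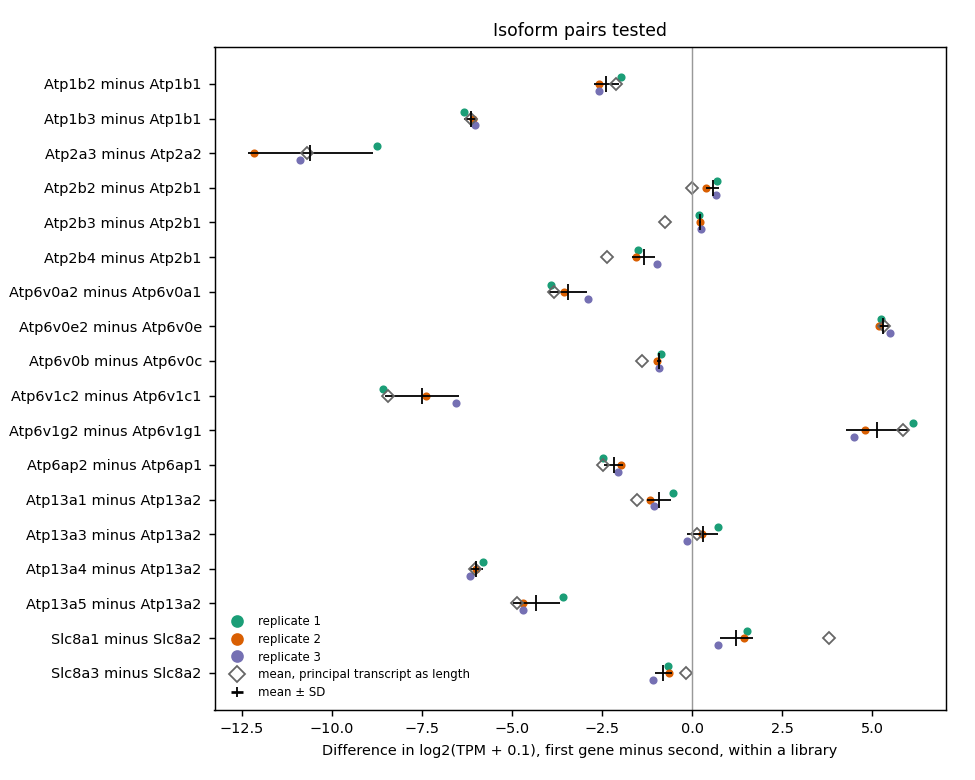
Log2 difference in TPM between 2 isoforms of the same class, with a point per library, the mean ± SD (n = 3) and, as open diamonds, the mean with the principal transcript as length. Of the 18 pairs plotted, 16 passed the threshold, 4 with the first-named gene higher and 12 with it lower, where 83.9 to 99.97% of all genes tested differed from the second-named genes.

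Over all classes, 31 isoform pairs were set up, of which 21 had enough counts in both genes to be tested. Of these, 19 passed an adjusted p of 0.05 in limma, and 18 did in a t test without moderation of the spread. Between 83.9 and 99.97% of all genes tested differed from the second-named gene by the same rule, so this share of called pairs is near that of any gene. The direction was the same in 3 of 3 libraries for 20 of the 21. The very small p-values arise from a spread pooled over genes, fully so for the comparisons with Atp6v0c, Atp6v1g1, Atp13a2 and Slc8a2. They do not add to the 3 libraries behind each value.

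Variation between the libraries was examined for the 38 genes whose mean reached 1 CPM. By a chi-square test against counting error, with Benjamini-Hochberg adjustment, 35 of the 38 varied, against 74.3% of all genes tested. The exceptions were Atp6v0d1 (adjusted p = 0.0924), Atp6v0e (0.805) and Atp13a5 (0.0990). Of the 35 with a mean of at least 10 CPM, 34 varied, against 81.6% of all such genes. Against counting error plus the trended dispersion of all genes, 0 of the 38 did, with 2 at an unadjusted p under 0.05, beside 0.0927% of all genes by the same rule. In size the differences were modest: the highest library exceeded 1.5 times the lowest in 10 of the 38, against 41.0% of all genes, and the median coefficient of variation was 13.3%, against 17.5% over all genes.

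V-ATPase genes were most often highest in replicate 3, namely 12 of 19, and lowest in replicate 1, namely 11 of 19. Over all genes, 38.7% were highest in replicate 3 and 43.1% lowest in replicate 1. Atp6v1g2, Atp6v1a and Atp6v0a1 were highest in replicate 1 instead. All these orders are in TPM. In CPM, Atp6v1a stood at 654, 659 and 579 in replicates 1, 2 and 3. For Atp6v1g2, replicate 1 was above the mean of the others by 0.39 on the log2 scale of CPM, while Atp6v1g1 and Atp6v1f stood at -1.09 and -1.06. Short genes in general were lower in replicate 1: the median log2 difference from the other libraries was -0.63 over 665 genes of up to 1500 nt and 0.06 over 2526 genes longer than 8000 nt. Atp6v1g1 and Atp6v1f, with merged exons of 1135 and 1063 nt, belong to the shortest class. The part of this length pattern in the spread of the single genes was not tested.

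**Figure D4:**
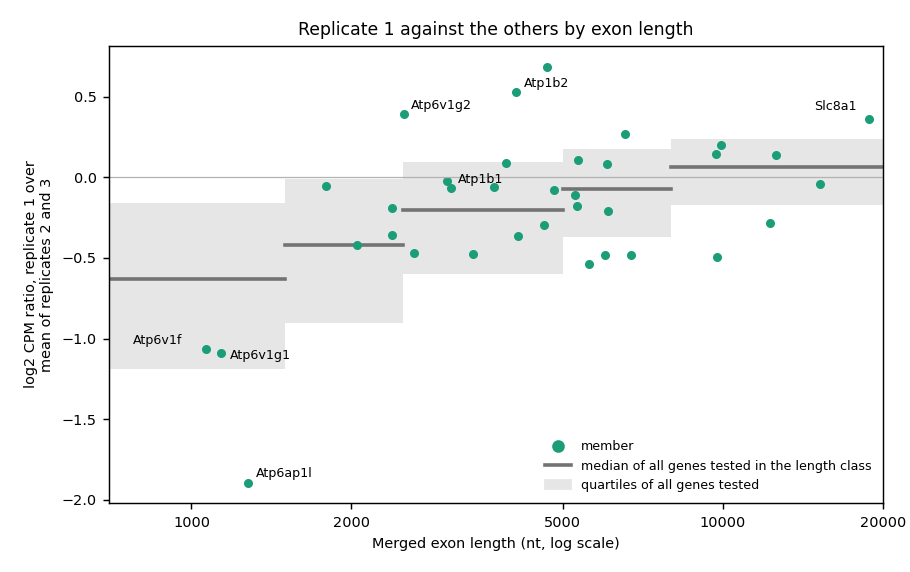
Log2 of replicate 1 over the mean of replicates 2 and 3 (CPM) against merged exon length (log axis, nt) for 35 of the genes, with the medians (lines) and quartiles (shading) of all genes tested in 5 length classes. Short genes such as Atp6v1g1 and Atp6v1f lie near -1.09 and -1.06, and Atp6v1g2 lies at 0.39.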

How the data were processed

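TRAP libraries from 3 immunopurified samples of mouse cerebral cortex were analysed. The authors deposited raw read counts per gene symbol, and the submitters' processing notes name STAR 2.0.0e, HTSeq and the mm10 build. No annotation, strand setting or counting mode is stated in the labels. Summary lines that name no gene, between 25.1 and 28.8% of reads, were left out. Lengths came from GENCODE M21 (GRCm38), with 23161 symbols matched directly, 735 through an older name and 8636 without a length; the symbols with a length held 94.6 to 97.1% of gene counts. TPM was computed from the deposited counts and merged exon length. Overlapping genes cannot be told apart by strand here.

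Isoform pairs were tested with limma 3.58.1 on log2(TPM + 0.1), as the difference of every gene from the second-named gene over the 14313 genes with at least 10 counts in all, with Benjamini-Hochberg adjustment over all of them. Values without moderation come from an ordinary t test of the same differences, on each gene's own spread and with the same adjustment. Fold changes on this scale understate the change of low genes. Spread between libraries was tested by chi-square after TMM scaling in edgeR 4.0.16, where the mean reached 1 CPM. DESeq2 1.42.0 size factors served as an alternative scaling. Methods were checked on simulated data, the spread test on counts with counting error only and the pair test with Atp2b1 as second-named gene. The checks do not cover spread beyond counting error in the first test or other second-named genes in the second. Limits for 0 counts use 3 counts per library and cover counting error only. Results of 3 of the 51 genes are not reported here and are left out of the figures, though they enter the counts and sums over all 51. Of the rest, genes of the isoform pairs and genes averaging at least 100 TPM are given per library, and genes with 0 counts are named. Of each list of related genes, the 3 highest and the lowest are named, with any at 0 counts. The symbol rule uses no measured value, but the choice of these gene families and of the lists was made with earlier results of these data known. Since the study has 1 group, no conditions were compared.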

Additional observations from a re-analysis of the deposited data

How the results depend on the processing

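Over 21 isoform pairs and 12 alternative settings, 234 of 248 differences kept their direction and their side of the threshold, 6 lost the call, 3 gained it and 5 reversed. The reversals were in the PMCA genes: Atp2b2 minus Atp2b1 was -0.01 with the longest and with the principal transcript (limma, adjusted p = 0.942 for both). Atp2b3 minus Atp2b1 was -0.813, -0.764 and -1.434 with the longest transcript, the principal transcript and no length correction. These Atp2b3 differences passed the threshold (limma, adjusted p = 7.69e-05, 0.00015 and 9.29e-12). With no filter on low counts, 29 of 31 pairs passed, against 19 of 21, because genes at or near 0 counts then entered. Of the genes varying between libraries, 35 in the main test, 0 remained past the threshold when the trended dispersion was added, and leaving out 1 library each gave 20 to 33, with 20 when replicate 1 was left out. Of 210 alternative isoform shares, 41 moved by more than 1 SD. Depth limits the genes with under 10 counts, whose order among themselves was not tested. The alternative lengths given for the ratios of sums and for the Atp6v1g2 share of V-ATPase genes were chosen after seeing the data. No paired analysis was possible because all libraries belong to 1 group.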
